A study of Lathyrus oleraceus with 4 samples.

Results

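The probes described here were those designed from clones of a subtracted cDNA library of the pea shoot apical meristem (SAM), the dome of dividing cells at the shoot tip from which leaves, stem and flowers arise. On the CombiMatrix oligonucleotide chip their names consist of the letter S and 4 digits. Of 296 such probes, 288 were described and 8 were left out by the rule that chose them, out of 2234 probes that were not blank spots. The remaining probes came from a standard SAM library (290 probes), a normalized SAM library (1095 probes) and public GenBank sequences (553 probes).

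Each array compared dissected SAM of 10-day-old garden pea cv. Torsdag with non-meristem tissue (NM) of primary stem, primary roots and mature leaves, without any treatment in either tissue. Each of the 4 arrays was 1 sector of a chip and carried both tissues from 1 of 4 independent collections, with about 80 meristems pooled per extraction. SAM was labelled with Cy3 on sectors 1 and 3 and with Cy5 on sectors 2 and 4. NM was a mixture of organs, so that a ratio shows the level in the SAM against an average over stem, root and leaf.

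In a subtracted library, cDNA of 1 tissue (the tester) is hybridised to an excess of cDNA of another (the driver), and sequences common to both are removed before cloning. Here SAM was the tester and NM the driver, so that the clones had already been enriched for SAM transcripts before any array was hybridised. Such a library also tends to be redundant. The study clustered its sequences by similarity before the probes were designed, so that repeated clones of a transcript were largely merged. Different clones on the chip can still represent the same transcript. Shares of clones given below are shares of these probes, not of all clones sequenced from the library. Meristem cells divide more often than those of mature organs, and transcripts of histones, replication proteins and cyclins are abundant in dividing cells. Neither the oligonucleotide sequences nor gene names for all clones were in the sources used here, so that clones are given by name and, where a match could be made, by annotation.

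Values are log2 ratios of SAM over NM, normalized within each array by a curve through all probes. A value of 0 lies on that curve, which need not be equal raw intensity, and 1 is 2-fold above it. Without normalization the median log2 ratio over all probes was 0.27. In the array tables the channels carry numbers but no dye names, while the sample labels list Cy3 first and Cy5 second. Channel 1 was nevertheless read as Cy5, by the directions that the study lists from these same arrays. Under the opposite reading every direction given here would be reversed. All 128 GenBank-derived probes that the study lists with a direction have that direction under the reading used and 0 of 128 under the other.

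Of the 288 clones, 56 (19.4%) were called higher in SAM and 3 (1.04%) were called lower. A call needed an adjusted p under 0.05 by limma over 4 arrays and a ratio above 1.3 or below 0.7. The number called higher moved to 13 without normalization, 36 with arrays centred on their median and 95 with a curve through GenBank-derived probes alone, and that called lower to 0, 2 and 0. Over all 2234 probes 9.76% were called higher and 7.34% were called lower. Higher calls were less frequent than among standard-library probes (25.2%) and more frequent than among normalized-library probes (4.75%) or GenBank-derived probes (5.24%). Lower calls were rarer than in each of these sets (7.24%, 3.38% and 18.6%, in that order). These shares were not tested against each other. All 8 clones left out by the rule were called higher, and with them the count was 64 of 296 (21.6%). Without the limits on the ratio, 59 clones had a positive and 5 a negative ratio at an adjusted p under 0.05.

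Most clones of the library lay close to the normalization curve. Their median log2 SAM/NM ratio was 0.09, with the middle part from the lower to the upper quartile between -0.03 and 0.32. The full range ran from -0.66 to 2.52, that is, from a ratio of 0.631 to one of 5.73. The distribution was drawn out on the SAM side, since the highest clone was 2.43 above the median and the lowest 0.76 below it. A ratio between 0.7 and 1.3 was found for 218 clones (75.7%, against 81.6% of all probes). Ratios above 4 were found for 2 clones (0.694%, against 0.537% of all probes) and from 2 to 4 for 18 (6.25%, against 2.91%). Ratios from 1.3 to 2 were found for 45 (15.6%, against 7.25%) and below 0.7 for 5 (1.74%, against 7.74%). All 20 clones with a ratio above 2 were called, as were 36 of the 45 clones between 1.3 and 2 and 3 of the 5 clones below 0.7.

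Over the 288 clones, the medians of sectors 1 to 4 were 0.09, 0.09, 0.12 and 0.18 (mean 0.12 ± 0.04, SD, n = 4 arrays). All 4 were above 0. The clones' median exceeded that of the normalized-library probes by 0.12 ± 0.04 and that of the GenBank-derived probes by 0.24 ± 0.08 (SD, n = 4 arrays), with the difference positive on each array. Against the standard library it differed by 0.01 ± 0.03 (SD, n = 4 arrays), and was higher on 2 of 4 arrays. These differences between sets were not tested, and an exact two-sided sign-flip test over 4 arrays cannot give a p below 0.125.

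The signs of the arrays agreed more often above 0 than below. A ratio above 0 on all 4 arrays was found for 96 clones (33.3%, against 17.9% of all probes), and below 0 on all 4 for 16 clones (5.56%, against 16.8%). The remaining clones were split, with 57 above 0 on 3 arrays, 81 on 2 and 38 on 1. The mean was above 0 for 195 clones and below 0 for 93.

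The clone with the highest ratio was S0094, which matched no annotated transcript. Its log2 ratios were 2.11, 1.72, 3.42 and 2.83 on sectors 1 to 4, a mean of 2.52 (ratio 5.73, adjusted p = 4.49e-04 by limma). The unnormalized SAM intensities behind them were 1316, 565, 5425 and 9068, and those of NM were 222, 335, 328 and 522. SAM was thus the brighter channel in either dye, but the spread of the ratios (SD 0.75) was among the larger ones. At the median of the clones SAM was also brighter than NM on sectors 1, 3 and 4 (476 against 255, 701 against 361 and 982 against 474.5). On sector 2 it was dimmer (195 against 395).

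The next clone, S0916, had a lower spread. Its values were 1.92, 2.18, 3.04 and 2.10 (mean 2.31, ratio 4.96, SD 0.50, adjusted p = 1.81e-04 by limma). The study's tables carry 2 different annotations for the matching transcript, the core histone H2A in 1 and a ribosomal protein in another, and it is counted here as H2A. These were the only clones of the library with more than a 4-fold ratio.

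S0103 was annotated as gibberellin-regulated, after a plant hormone that promotes stem elongation. It had 3.04, 1.01, 2.13 and 1.78 on sectors 1 to 4 (mean 1.99, ratio 3.97, adjusted p = 0.00194 by limma), one of the largest spreads of the library (SD 0.84). Both values with SAM in Cy3 were above both values with SAM in Cy5. S0784, annotated as the transcriptional co-activator KIWI, had 1.21, 1.46, 2.11 and 2.43 (mean 1.80).

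Then followed 3 clones without an annotation here. S0039 had 1.33, 1.34, 2.62 and 1.82 (mean 1.78), S0144 had 1.29, 1.63, 2.28 and 1.86 (mean 1.76), and S0291 had 1.16, 1.53, 2.53 and 1.82 (mean 1.76). In each of these clones sector 3 was the highest, and no array was below 1. The order among clones from S0103 to S0291 rests on differences smaller than their SD over arrays (0.41 to 0.84).

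The other clones among the 12 highest ended at a mean of 1.28. S0426, annotated as histone H2A, had 1.04, 1.50, 2.12 and 2.04 (mean 1.67). S0077, annotated as a Kunitz inhibitor, a family of secreted protease inhibitors, had 1.12, 1.87, 1.35 and 2.05 (mean 1.60), the higher values being those with SAM in Cy5. S0472, annotated as histone H4, had 1.47, 0.80, 2.09 and 1.95 (mean 1.58). S0242, without a database match, had a mean of 1.48, and S0467, an expressed protein of unknown role, one of 1.28. All 12 clones were above 0 on all 4 arrays, and all were called (adjusted p from 1.81e-04 to 0.00194 by limma).

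The clone with the least spread among those with a ratio above 2 was S0253, annotated as a phosphoesterase. It had 1.12, 1.01, 1.20 and 1.14 (mean 1.12, SD 0.08), and with S0916 the smallest adjusted p of the library (1.81e-04 by limma).

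Of the 93 clones with a mean below 0, 3 were called lower, and none of these matched an annotated transcript. S0612 had log2 ratios of -0.14, -0.91, -0.69 and -0.91 (mean -0.66, ratio 0.631, adjusted p = 0.013 by limma). S0775 had -0.62, -0.17, -0.66 and -0.80 (mean -0.56, ratio 0.678, adjusted p = 0.0125 by limma). In both clones 1 array was close to 0 and the other 3 were at -0.62 or below. Without sector 4, neither passed the test (adjusted p = 0.076 for S0612 and 0.0691 for S0775). Unnormalized intensities of S0612 were 838, 218.5, 730 and 1161.5 in SAM and 779, 812, 718 and 1081.5 in NM. Those of S0775 were 435, 163, 545 and 797 in SAM and 448, 430, 521 and 775.5 in NM. SAM was thus not the dimmer raw channel on every array, and lower here means below the normalization curve.

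The remaining clone called lower, S0269, lay next to the limit, with -0.21, -1.07, -0.51 and -0.34 (mean -0.53, ratio 0.692, adjusted p = 0.0383 by limma). Its unnormalized intensities were 1676, 786, 3809 and 11710 in SAM and 2210, 2387, 4613 and 4869 in NM. Its call was lost without sector 2, 3 or 4, and its mean turned to 0.13 when the normalization curve was drawn through GenBank-derived probes alone. Without sector 4, 0 clones were called lower. The 12 highest clones, by contrast, kept their call whichever array was left out, at an adjusted p of at most 0.0134 by limma.

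S1082 and S0491 passed the test but not the limit on the ratio. S1082 had -0.24, -0.43, -0.42 and -0.60 (mean -0.42, ratio 0.746, adjusted p = 0.0155 by limma). S0491 had -0.26, -0.57, -0.33 and -0.34 (mean -0.38, ratio 0.771, adjusted p = 0.0248 by limma), and is named because it completes the 5 negative clones past the test. Both had smaller spreads than the clones called lower (SD 0.15 and 0.14).

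A pair of the lowest means, by contrast, rested on sector 2. S0381 had -0.31, -1.93, -0.35 and 0.09 (mean -0.62, SD 0.89, adjusted p = 0.229 by limma), the largest SD of the library. S0649 had -0.32, -1.39, -0.64 and 0.09 (mean -0.56, SD 0.63, adjusted p = 0.128 by limma). Neither was called, and sector 4 was above 0 in both. On sector 2 the SAM channel was the dimmest of the 8 channels (median intensity of the clones 195). S0381, however, had 1692.5 in SAM on that sector, and its NM intensity of 8093 was the highest of the clones there. Its NM intensities on sectors 1, 3 and 4 were 1764, 3980 and 3003. S0649 had 254 in SAM and 1200 in NM on sector 2. The part of either channel in the low values was not tested.

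Annotations could be matched to 49 of the 56 clones called higher. The match was available only for transcripts that the study lists as changed, in either direction, on these same arrays. A change in every annotated clone was thus fixed by construction. All 49 were called higher, and 0 matched a transcript listed as lower. The groups below describe what the called clones are, and they are no evidence of a direction for the group. For the transcripts matched to S0388, S1006 and S1048 the study's tables differ among themselves in the ratio, and the match rests on the fuller table, so that these annotations are less certain. Clones annotated as the same histone may be one transcript or cross-hybridise, and are not independent.

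Histones and chromatin proteins were represented by 9 clones, with means from 0.58 to 2.31 (median 1.07). The core histones, which form the spool around which DNA is wound, made up 5 of them. Besides S0916 and S0426, histone H2A was the annotation of S0012 (0.75, 0.74, 1.54 and 1.42, mean 1.11) and S0364 (0.58, 0.41, 1.01 and 0.30, mean 0.58). The means of the 3 clones annotated as H2A alone ranged from 0.58 to 1.67, and S0916, with its 2 annotations, lay above them at 2.31. Linker histone H1 (S0955) had 0.09, 0.67, 0.77 and 1.22 (mean 0.69, adjusted p = 0.0248 by limma), and its call was lost without sector 2, 3 or 4.

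The chromatin-associated clones had middle values. MSI3 (S0462), a WD-40 repeat protein of a family that binds histones, had 0.39, 1.04, 1.54 and 1.31 (mean 1.07). DDM1 (S1071), a chromatin remodeller needed in Arabidopsis to maintain DNA methylation, had 0.91, 0.65, 1.49 and 0.76 (mean 0.95). SAR DNA-binding protein (S0518) had 0.34, 0.36, 1.13 and 0.97 (mean 0.70), and its call was lost without sector 4 (adjusted p = 0.0853 by limma).

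Replication and cell cycle were represented by 5 clones, with means from 0.60 to 1.20 (median 0.83). The mini-chromosome maintenance proteins form the helicase that opens DNA for replication. One such clone, S1048, had 0.78, 0.78, 1.75 and 1.48 (mean 1.20), and MCM6 (S0982) had 0.55, 0.95, 0.99 and 0.80 (mean 0.83, SD 0.20). Proliferating cell nuclear antigen (S0388), the clamp that holds DNA polymerase on its template, had 0.67, 0.37, 1.32 and 1.17 (mean 0.88).

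Mitotic cyclin B1-1 (S0802), which drives entry into mitosis, had 1.3, 0.25, 1.02 and 0.59 (mean 0.79). Its values with SAM in Cy3 were both higher than those with SAM in Cy5, and the dye effect was not past the adjusted threshold (adjusted p = 0.108 by limma). A cell cycle protein kinase (S0826) had 0.48, 0.52, 1.07 and 0.32 (mean 0.60).

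RNA-associated proteins made up 3 of the 15 clones in no other group, which ranged from 0.54 to 1.99 (median 0.79). The pre-mRNA processing ribonucleoprotein (S0367) had 0.74, 1.05, 1.02 and 0.76 (mean 0.89), the RNA-binding protein (S0907) had 0.78, 0.67, 1.35 and 1.00 (mean 0.95), and the small nuclear ribonucleoprotein (S0665) had 0.85, 0.26, 1.61 and 0.77 (mean 0.87). The first had a small spread (SD 0.17) and the last a large one (SD 0.56), and the call of the last was lost without sector 4.

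Auxin response factor 9 (S0309), of the family that regulates genes in response to the hormone auxin, had 0.51, 0.41, 0.72 and 0.85 (mean 0.62, adjusted p = 0.00419 by limma). The cytochrome P450 CYP78A8 (S0796) had 0.76, 1.04, 0.73 and 1.06 (mean 0.90), and S0551, annotated as alpha-fucosidase, had 0.42, 0.38, 0.96 and 1.38 (mean 0.79). No array was below 0 for any of these 3 clones.

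A translation initiation protein (S0917) was the only clone of the group for ribosome and translation (0.19, 0.42, 0.68 and 0.79, mean 0.52), and its call was lost without sector 3 or 4. S0077 was the only clone placed by the words of its annotation in the group for secreted and surface proteins. None of the 49 was annotated with photosynthesis. The largest group was the 18 clones without a database match or of unknown role (means 0.46 to 1.48, median 0.76). Of the 49 annotated clones 48 were above 0 on all 4 arrays. The exception was S1006, of unknown role, with -0.02, 0.64, 0.53 and 0.69 (mean 0.46, adjusted p = 0.0472 by limma).

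S1006 was also the last clone inside the call, after S0176 (0.65, 0.09, 0.86 and 0.39, adjusted p = 0.0371 by limma) and S0689 (1.12, 0.02, 0.46 and 0.77, adjusted p = 0.0457 by limma). The first clones outside, among ratios above 1.3, were S0167 (0.18, 0.11, 0.70 and 0.77, adjusted p = 0.0643 by limma), S0514 (0.27, 0.04, 0.57 and 0.88, adjusted p = 0.0713 by limma) and S0203 (-0.03, 0.55, 0.40 and 0.62, adjusted p = 0.0713 by limma). The 6 clones were alike in having at least 1 array close to 0.

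The agreement of arrays over the 288 clones depended on the dyes. Between arrays with SAM in the same dye, Pearson's r across clones was 0.825 (sectors 1 and 3) and 0.798 (sectors 2 and 4), and Spearman's rho was 0.739 and 0.761. Between arrays with SAM in opposite dyes, r ranged from 0.598 to 0.779 and rho from 0.327 to 0.532. The points share their probes and the normalization of their array, and clones are not independent replicates. The sign was the same for 77.4% and 79.9% of clones on same-dye pairs and for 54.2% to 62.2% on opposite-dye pairs. Over all 2234 probes the sign was the same for 75.7% and 75.8% on same-dye pairs and for 49.1% to 60.2% on opposite-dye pairs. Their r was 0.886 and 0.869 on same-dye pairs and 0.681 to 0.814 on opposite-dye pairs, above that of the clones on every pair. Their rho was 0.761 and 0.751 on same-dye pairs and 0.228 to 0.47 on opposite-dye pairs.

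The strongest clones were shared by the arrays and the lowest mostly were not. Of the 29 highest clones of each array, 18 were among the 29 highest on all 4 arrays. Of the 29 lowest, 2 were so on all 4. The 25 clones with more than a 2-fold ratio on the arrays with SAM in Cy3 (median 1.41) were all above 0 on the other orientation, with a median of 1.13 and a range from 0.42 to 2.28, and 17 were again past 2-fold. The 20 clones past 2-fold with SAM in Cy5 (median 1.36) were likewise all above 0 with SAM in Cy3, at a median of 1.50 and a lowest value of 0.12.

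For clones below 0.7 on 1 orientation the picture was weaker. A single clone was below it with SAM in Cy3, and it had -0.48 with SAM in Cy5. With SAM in Cy5 there were 6 such clones (median -0.74), of which 4 were below 0 with SAM in Cy3 and 0 were past the limit.

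A dye effect, the departure of the orientations from their common mean, was fitted for each probe. It had an unadjusted p under 0.05 for 57 clones (19.8%, against 23.1% of all probes) and an adjusted p under 0.05 for 0 clones (0.224% of all probes, or 5). The smallest adjusted p over the clones was 0.0696 by limma, for S0979, which had -0.17, 0.88, -0.03 and 0.94. S0979 was near 0 with SAM in Cy3 and close to 2-fold with SAM in Cy5. S0546 was opposite in sign between orientations, with 0.30, -0.52, 0.72 and -0.77 (dye effect -0.58, adjusted p = 0.0923 by limma). The largest dye effect was that of S0103 (-0.59, adjusted p = 0.143 by limma), whose mean was above 1 in both orientations.

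The spread of a clone over the arrays, as SD, was 0.22 at the median and ranged from 0.03 to 0.89. It was larger for clones with larger ratios, with medians of 0.19 between ratios of 0.7 and 1.3, 0.33 from 1.3 to 2, 0.46 from 2 to 4 and 0.63 above 4. Below 0.7 the median SD was 0.38. Across clones the SD correlated with the size of the mean log2 ratio at r = 0.567 and with signal at r = 0.328. S0387, with 1 of the 3 largest SDs (0.81) and a mean of -0.30, had 0.11, -0.04, 0.24 and -1.50.

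The relation of ratio to signal depended on the normalization. Over the 288 clones the mean log2 ratio correlated with the mean log2 signal of both channels at r = 0.26 (rho = 0.188), and over all other probes at r = -0.0675 (rho = -0.0868). The normalization removes a trend with signal over all probes, most of which are these others. Their weak correlation was thus largely set by the processing. With the curve through GenBank-derived probes alone, r over the clones was 0.501. Within single arrays r was 0.29, 0.108, 0.293 and 0.287 on sectors 1 to 4. Against the SAM channel alone r was 0.467, and against the NM channel alone 0.008. SAM is the numerator of the ratio and NM its denominator, so that the contrast between these values is in part built in.

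When the clones were ordered by signal into 4 groups of 72, the median log2 ratio was 0.04, 0.12, 0.10 and 0.23 from the dimmest to the brightest. The number called higher was 0, 10, 21 and 25 (0%, 13.9%, 29.2% and 34.7%), and the number called lower 0, 0, 2 and 1. Among other probes in the same ranges of signal, 0.376%, 4.75%, 10.9% and 21.0% were called higher. The standard library alone had 2.27%, 10.1%, 21.1% and 48.5%, so that its share was above that of the subtracted-library clones in the dimmest and the brightest range and below it in the others. In the dimmest range its share was 1 probe of 44, against 0 of the 72 clones. These shares were not tested against each other. The dimmest group also had the smallest median SD (0.17, against 0.20, 0.25 and 0.29 in the others) and ratios within -0.20 to 0.32 on the log2 scale.

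The brightest clones lay on both sides of 0. S0559, without a database match, was the brightest (mean log2 signal 12.1), with 0.70, 0.52, 0.96 and 0.87 (mean 0.76), and S0551 followed (11.97). The next was S0381 (11.7), the uncalled clone with the outlying value on sector 2. The dimmest clones, S0336, S0209 and S0271 (7.71, 7.71 and 7.76), had means of 0.06, 0.02 and -0.03, none past the test.

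The clones' median intensity per channel ranged from 195 to 982, and the median of the 6 blank spots from 43.8 to 157. No clone was at or below the brightest blank spot in any channel. In the SAM channel of sector 2, 17 clones were under 2 times that spot, in the NM channel of sector 3 there were 9, and in the SAM channel of sector 4 there was 1. With the median of the blank spots subtracted, 60 clones were called higher and 3 lower, and the median log2 ratio was 0.12.

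The mean ratio was close to unrelated to the name and position of a clone. The clone numbers ran from 5 to 1082, and number and mean log2 ratio correlated at r = -0.09 (rho = 0.00). The clones were spread over all 56 columns and 40 rows of a sector, with r = -0.05 against column and -0.09 against row. On sector 2 alone, the array on which the low means of S0381 and S0649 rest, the log2 ratio and the column correlated at r = -0.204 (rho = -0.278), whereas on the other arrays r lay between -0.03 and 0.05. Ratios on sector 2 were thus lower at higher column numbers, while S0381 lay in column 55 and S0649 in column 19. The part of this trend in the low values was not tested.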

How the data were processed

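For each array the authors deposited raw spot intensities of both channels, with no background column. A second deposited table holds log2 ratios, channel 1 over channel 2. A global loess followed by scaling between arrays gave these log2 ratios to within 3.17e-08. The tool that made them is not given for the deposited table, and their median was within 0.01 of 0 on each array.

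From the intensities, 6 blank spots were left out, and log2 ratios of 2234 probes were normalized within arrays by robust spline (5 degrees of freedom), without background subtraction, in limma 3.58.1 with MASS 7.3.60.0.1 under R 4.3.3. Signs were set by the dyes. The mean SAM/NM log2 ratio of each probe was tested by lmFit and eBayes (prior of 4.41 degrees of freedom and SD 0.211), with Benjamini-Hochberg adjustment over all probes. The procedure was tested on simulated data. The simulation had independent noise and no dye effect of single probes, and no result here rests on it. The number of arrays limits the precision. A dye term was fitted separately.

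Replicates 1 to 4 are sectors 1 to 4. The label of 1 array has no number and was taken as sector 1 by its dye and the other numbers.

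Annotations were matched to clones through ratio and adjusted p, refitted on the deposited log2 ratios over 2240 spots. Each matched to within 5.8e-06, and the next best clone was at least 6.1e-04 away. Of 230 library accessions listed by the study, 57 matched a clone of the subtracted library, of which 49 were among the 288.

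The clones named were the 12 highest, the 6 lowest and all called lower, the 3 brightest, the 3 dimmest, the 3 with the largest SD, the 3 with the largest dye effect, 3 just inside and 3 just outside the call, and the annotated clones. Members and lists were chosen with earlier results of these data known.

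Alternatives were other normalizations, subtraction of the blank median, the deposited log2 ratios, omission of the dimmest probes (those below the lower quartile of signal), a robust prior with trend, a dye term, omission of each array and each orientation alone. An inclusion of the 8 left-out clones was chosen after the data were seen.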

Additional observations from a re-analysis of the deposited data

Results flagged for a closer look

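Of the 68 named clones, 3 had 1 array apart from the other 3 by Dixon's criterion, as had 8 of all 288 (2.78%). By chance about 1 in 20 groups would be so marked. S0387 had -1.50 on sector 4, and the others lay between -0.04 and 0.24. S0722, annotated as a nucleotide-binding protein, had 0.37 on sector 2, and the others lay between 0.72 and 0.79. S1021, annotated by an Arabidopsis locus alone, had 0.87 on sector 4, and the others lay between 0.48 and 0.50. S0722 and S1021 kept their call whichever array was left out.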

How the results depend on the processing

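The count of clones called higher stayed between 44 and 65 except under 3 normalizations. It was 13 without normalization, 36 with arrays centred on their median, and 95 with the curve through the GenBank-derived probes, where the median of all probes moved to 0.13 (0.27 without normalization). Of the 56 clones, 13, 36 and 56, in that order, remained called higher, and 0 changed sign under any setting. The count called lower was 0, 2 and 0 under these normalizations, 1 with SAM in Cy3 alone, 5 without limits on the ratio and 0 to 3 without 1 array. The median moved to 0.37 without normalization and to 0.26 under the GenBank curve, and the correlation with signal to 0.501 under that curve. Without 1 array 44 to 58 clones were called higher, and 44 of the 56 in all 4 such fits. With the 8 left-out clones 64 of 296 were called higher. The clones that changed sign were uncalled except S0269. S0381 had 0.065 and the called S0269 0.13 under the GenBank curve. S0271 had 0.22, S0387 0.073 and S0546 0.21 without normalization. S0209 had -0.00086 with scaling and -0.0016 in the deposited log2 ratios. With SAM in Cy3 alone S0209 had -0.19, S0336 -0.064, S0387 0.17, S0546 0.51 and S0979 -0.10. Without 1 array S0209 ranged from -0.10 to 0.11, S0271 from -0.076 to 0.020, S0387 from -0.48 to 0.10 and S0546 from -0.33 to 0.17. The cause of these changes was not tested. Both tissues of a collection share an array, so the ratio is itself the pairing, and no further block was fitted.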
